A study of Homo sapiens with 15 samples.

Results

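The comparison described here sets the SG1 group against the CTRL group in MDA-MB231, an established human triple-negative breast cancer cell line, after a depletion of KIF20A. It took 6 of the 15 libraries of the study: 3 titled SG1, with the genotype given as KIF20A knockdown, and 3 titled CTRL, with the genotype given as WT. Another 3 libraries titled SG3 carried the same knockdown genotype in the same count matrix, and the remaining 6 belonged to an overexpression experiment that is not used here. All cells were grown in DMEM with fetal bovine serum and antibiotics, and total RNA was extracted with an RNeasy kit and sequenced. The labels do not say what SG1 stands for, how the depletion was made, or whether a group was 1 clone. They also do not tell whether the 3 replicates were grown separately, and a p-value then speaks only to the scatter among the sequenced samples, part of which may be technical.

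KIF20A is a plus-end-directed kinesin that gathers on the central spindle in anaphase and helps to bring the chromosomal passenger complex and Polo-like kinase there for cytokinesis. Its transcript belongs to the genes that peak at the G2 to M transition, whose promoters are bound by DREAM, B-MYB and FOXM1 complexes. In tumour cells such as MDA-MB231 it is known mainly as a marker and a requirement of proliferation. The libraries carried the defining mesenchymal markers of the cell line, with vimentin (VIM) at 558 to 816 CPM and CD44 at 1247 to 1585 CPM in the 6 libraries. CPM is the usual depth-scaled count, here after TMM scaling, which adjusts library totals for composition. The luminal receptors ESR1 and PGR, the luminal factor FOXA1 and the basal keratin KRT5 were at 0 counts in all 6 libraries. Other epithelial markers were present, however. Of 23 luminal and epithelial markers 16 were expressed enough to be tested, and the 23 summed to 1299 to 2001 CPM in the 6 libraries. Of 10 basal and myoepithelial markers 5 were tested, and the 10 summed to 88.3 to 153 CPM.

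KIF20A (ENSG00000112984.12, plus strand, chr5:138178719-138187715 in GRCh38) stood at 154, 171 and 160.2 CPM in CTRL replicates 1, 2 and 3 and at 123, 147 and 91.5 CPM in SG1 replicates 1, 2 and 3. Every SG1 library lay below every CTRL library, and SG1 replicate 2 was the nearest to CTRL. The means were 162 ± 8.75 CPM in CTRL and 121 ± 27.9 CPM in SG1 (SD, n = 3 each), a level 1.34-fold lower in SG1. This is a log2 fold change of -0.42 ± 0.18 (SE) with an edgeR quasi-likelihood adjusted p of 0.913, above the threshold of 0.05. Without SG1 replicate 3 it was -0.26, and without SG1 replicate 2 it was -0.59. The SG3 libraries, which share the same CTRL libraries, stood at 86.3, 60.8 and 79.1 CPM. In bulk RNA, fewer cells with a transcript and less of it per cell cannot be told apart.

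The stretch of 250 bases before the RefSeq start of KIF20A is shown because it carries the CCAAT box that many G2 to M genes share. It covers chr5:138178862-138179111 on the plus strand of GRCh38.p14, and capitals mark matches to CCAAT on either strand.
KIF20A: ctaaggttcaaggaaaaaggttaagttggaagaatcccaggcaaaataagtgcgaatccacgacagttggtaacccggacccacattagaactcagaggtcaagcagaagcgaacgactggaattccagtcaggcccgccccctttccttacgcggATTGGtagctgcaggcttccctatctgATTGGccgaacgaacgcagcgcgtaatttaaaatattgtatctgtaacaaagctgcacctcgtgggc
It held 2 CCAAT matches. CCAAT was found in 34.6% of all 35116 RefSeq promoter windows, which run from 250 bases before to 50 bases after a start, and in 58 of the 83 windows (69.9%) of genes on the mitosis list. A match is a description of letters and not evidence of a bound site.

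Across the 16786 genes tested, edgeR called 0 genes (0%) between SG1 and CTRL, and the adjusted p of KIF20A, 0.913, was the smallest value that any gene reached. At an unadjusted p under 0.05 it gave 770 genes (4.59%), of which 504 were lower (3%) and 266 higher (1.58%) in SG1, where 0.05 of the tests would be 839. DESeq2 called 3 of 16784 genes (0.0179%), all higher in SG1: PDK4, ANGPTL4 and ROBO1. Limma-voom called 0, and with quality weights 15 higher and 45 lower. The unadjusted count rested on single libraries, reaching 2021 without CTRL replicate 3, 1529 without SG3 replicate 1 and 330 without CTRL replicate 2.

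Genes that separated the groups were those whose 3 SG1 values all lay above, or all below, the 3 CTRL values. There were 832 such genes higher in SG1 (4.96% of those tested) and 1210 lower (7.21%), or 12.2% in either direction. If the order of the libraries were random, a share of 0.1 would separate in 1 direction or the other. Genes also do not vary independently of each other, so these counts alone do not show a response. Most were separated by little. Among those with a mean of at least 5 CPM in the higher group, the median gap between the nearest libraries of the 2 groups was 0.060 on the log2 scale, after adding 0.5 CPM, for the 579 higher genes and 0.071 for the 877 lower ones. The text below draws on the 12 genes with the widest gap in each direction. The cut-off lay between gaps of 0.279 and 0.272, the latter RFX3, on the higher side, and between 0.343 and 0.342, the latter KRT10, on the lower side.

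Several genes of fatty acid handling had wide gaps or were called by DESeq2 on the higher side. PDK4, CPT1A and PLIN2 were among the 12 widest gaps, and ANGPTL4 with PDK4 made 2 of the 3 DESeq2 calls. All belong to a list of 30 fatty acid use genes that are textbook targets or members of the PPAR system, nuclear receptors that bind fatty acids. Of its 27 tested members, 6 lay above CTRL in all SG1 libraries and 0 below, beside 4.96% and 7.21% of all genes. The median log2 fold change of the list was 0.15, beside -0.002 over all tested genes, and it was 0.062 without CTRL replicate 1.

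PDK4 (ENSG00000004799.8, minus strand, chr7:95583499-95596491) encodes a kinase that shuts off pyruvate dehydrogenase and so spares glucose. It stood at 1.10, 3.12 and 2.56 CPM in CTRL and at 6.15, 8.60 and 7.45 CPM in SG1. The lowest SG1 library lay 0.88 above the highest CTRL library on the log2 scale, the widest gap in either direction among genes of at least 5 CPM. The mean was 3.27-fold higher, with a log2 fold change of 1.71 ± 0.31 (SE), an edgeR adjusted p of 0.913 and a DESeq2 adjusted p of 0.000344. SG3 stood at 8.27, 6.47 and 5.83 CPM, all above CTRL too.

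CPT1A (ENSG00000110090.13, minus strand, chr11:68754620-68844410) is the mitochondrial carnitine palmitoyltransferase that admits long-chain fatty acids to oxidation. It was found at 56.9, 66.6 and 39.3 CPM in CTRL and at 87.0, 87.8 and 109 CPM in SG1. No library overlapped, and the mean was 1.74-fold higher (log2 fold change 0.80 ± 0.18, edgeR adjusted p = 0.913). In SG3 it was 108, 106 and 101 CPM, a narrow range that also lay above every CTRL library.

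ANGPTL4 (ENSG00000167772.12, plus strand, chr19:8363289-8374373), a secreted inhibitor of lipoprotein lipase, gave 1.04, 1.42 and 1.15 CPM in CTRL and 3.03, 2.79 and 8.41 CPM in SG1. SG1 replicate 3 was the high one, and the log2 fold change of 1.97 ± 0.42 (DESeq2 adjusted p = 0.00709, edgeR adjusted p = 0.913) came down to 1.27 without it. PLIN2 (ENSG00000147872.10, minus strand, chr9:19108375-19149290), which coats lipid droplets, stood at 45.0, 53.6 and 62.3 CPM in CTRL and at 76.7, 76.3 and 103 CPM in SG1. SG1 exceeded CTRL by 0.67 ± 0.17 on the log2 scale (edgeR adjusted p = 0.913). The SG3 range was 66.9 to 82.5 CPM.

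The other 2 members that separated the groups were weaker or rarer. CREB3L3, a membrane-bound transcription factor of lipid metabolism, was near the detection limit, at 0.0441, 0.0810 and 0 CPM in CTRL and 0.337, 0.615 and 0.383 CPM in SG1. A floor of 3 counts equals 0.0607 to 0.0719 CPM in these libraries, so the CTRL values are about as low as the depth can show. ACAA2, the last enzyme of mitochondrial beta-oxidation, stood at 24.9, 27.7 and 33.6 CPM against 36.8, 35.9 and 35.1 CPM. The receptors themselves overlapped between groups, with PPARD at 85.4 to 127 CPM in CTRL and 89.7 to 101 CPM in SG1, PPARA at 47.8 to 57.0 against 51.4 to 58.5 CPM, and PPARG at 21.5 to 33.3 against 28.3 to 36.8 CPM. TXNIP, another listed target, overlapped as well (225 to 369 against 256 to 356 CPM).

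**Figure D1:**
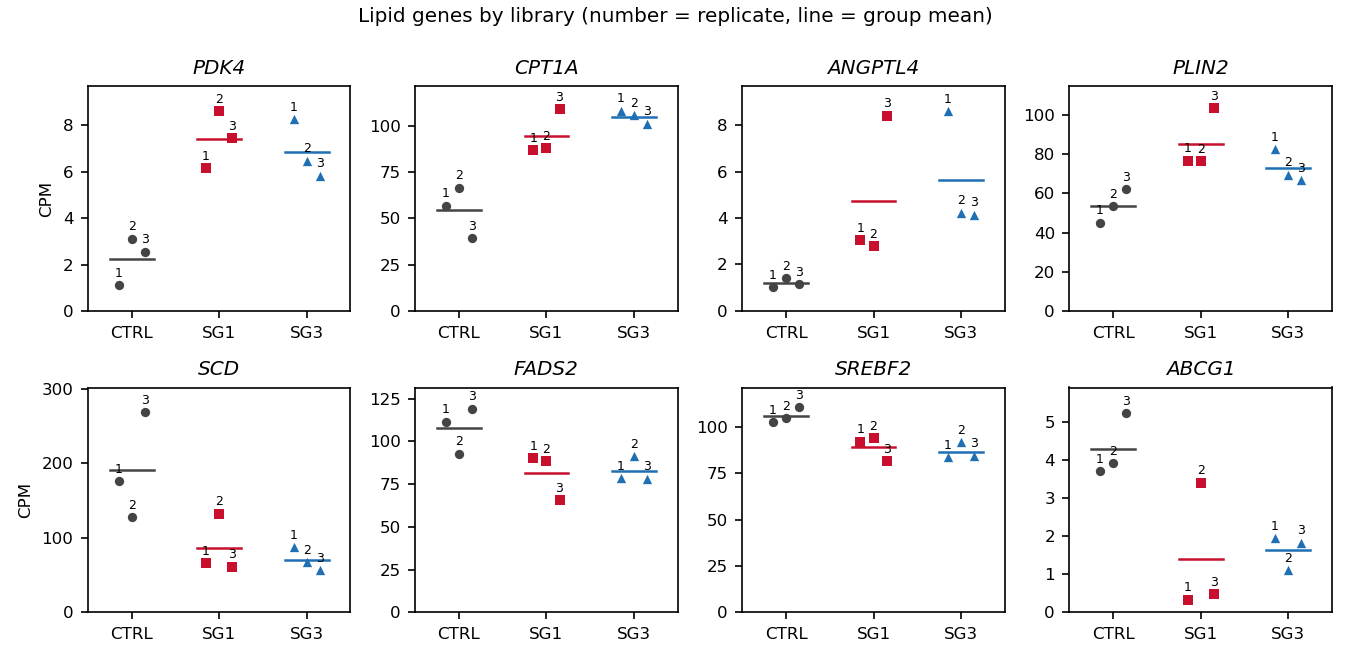
CPM of 8 lipid genes by library, with CTRL in grey, SG1 in red and SG3 in blue, the replicate number above each point and a line at each group mean; each panel starts at 0 and has its own scale. PDK4, CPT1A, ANGPTL4 and PLIN2 lie higher in every SG1 library than in any CTRL library, while SG1 replicate 2 sits apart from the other SG1 libraries in SCD and ABCG1.

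The promoter stretches of PDK4 and ANGPTL4, the leading genes of this group, are shown from the RefSeq windows of GRCh38.p14. They cover chr7:95596517-95596766 on the minus strand and chr19:8363905-8364154 on the plus strand. Capitals mark CCAAT and the TATA box letters TATAAA on either strand, and no base lay in more than 1 motif.
PDK4: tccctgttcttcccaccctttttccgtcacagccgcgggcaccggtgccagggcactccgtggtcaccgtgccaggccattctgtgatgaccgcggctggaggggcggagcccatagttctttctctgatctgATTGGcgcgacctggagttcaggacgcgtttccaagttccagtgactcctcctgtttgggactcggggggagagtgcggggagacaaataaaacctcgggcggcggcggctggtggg
ANGPTL4: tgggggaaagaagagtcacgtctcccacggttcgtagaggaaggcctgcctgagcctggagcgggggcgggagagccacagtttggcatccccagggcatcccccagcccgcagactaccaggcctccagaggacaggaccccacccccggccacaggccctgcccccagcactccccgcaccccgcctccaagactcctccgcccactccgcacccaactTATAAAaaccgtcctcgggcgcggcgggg
PDK4 held 1 CCAAT and ANGPTL4 held 1 TATAAA. Among the 43 windows of fatty acid use genes, 8 held TATAAA (18.6%, beside 11.5% of all windows) and 8 held CCAAT (18.6%, beside 34.6%). The PPAR element DR1, searched as an exact repeat of AGGTCA with 1 base between the copies on either strand, was found in 0 of the 43 windows and in 8 of all 35116, which says only that these letters are not in these short windows.

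LPL and DBI, which are also known PPAR targets but are not on the list of fatty acid use genes, lay lower in SG1, so the absence of lower genes in that count depends on which targets the list holds. Lipoprotein lipase (LPL), which frees fatty acids from circulating triglyceride and is the enzyme that ANGPTL4 inhibits, stood at 5.25, 7.21 and 7.09 CPM in CTRL and at 2.23, 3.48 and 3.55 CPM in SG1. Its highest SG1 value lay well below its lowest CTRL value, and the mean was 2.11-fold lower (log2 fold change -1.08 ± 0.25, edgeR adjusted p = 0.913). DBI, the acyl-CoA binding protein, stood at 47.7, 43.5 and 41.0 CPM against 31.8, 31.9 and 29.3 CPM. In SG3, LPL ranged from 3.76 to 5.64 CPM, and DBI was 26.5 CPM in replicate 1 but 48.0 and 44.6 CPM in replicates 2 and 3.

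Cholesterol synthesis genes lay lower in SG1. The pathway runs from HMG-CoA through mevalonate and squalene to cholesterol and is switched on by SREBF2 when membrane sterol is short. Of 27 tested members of the synthesis and uptake list, 9 lay below CTRL in all SG1 libraries (33.3%, beside 7.21% of all genes) and 0 above (beside 4.96%), with a median log2 fold change of -0.24. Their summed level was 1402 to 1575 CPM in CTRL and 1236 to 1358 CPM in SG1, without overlap. SREBF2 itself was at 103, 105 and 111 CPM in CTRL and at 92.1, 93.9 and 81.6 CPM in SG1, with a log2 fold change of -0.25 ± 0.12 (edgeR adjusted p = 0.913).

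Among the enzymes, DHCR7, which makes cholesterol from its last precursor, stood at 92.6, 73.5 and 70.1 CPM in CTRL and at 63.4, 61.4 and 63.4 CPM in SG1. CYP51A1, the lanosterol demethylase, was scarce, at 3.73, 3.75 and 1.92 CPM against 1.54, 1.45 and 1.80 CPM. The early enzymes FDPS (38.6 to 39.7 CPM in CTRL, 32.6 to 35.4 CPM in SG1) and MVK (13.9 to 15.7 against 11.96 to 13.6 CPM) separated by small steps, as did PMVK, EBP and the ubiquitin ligase MYLIP. INSIG1, the sterol-dependent retention factor of SREBP, stood at 34.3, 29.4 and 66.1 CPM in CTRL and at 29.9, 28.2 and 20.8 CPM in SG1, so CTRL replicate 3 stood far above the other 5 libraries.

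The promoter stretches of SREBF2, FDPS and MVK are shown because the pathway's genes are known to be read by SREBP together with the CCAAT factor NF-Y. They cover chr22:41832855-41833104, chr1:155308616-155308865 and chr12:109573544-109573793, all on the plus strand of GRCh38.p14 before the RefSeq start. Capitals mark CCAAT and the sterol regulatory element SRE-1, of which only the exact letters seen in capitals in the SREBF2 run were searched, on either strand.
SREBF2: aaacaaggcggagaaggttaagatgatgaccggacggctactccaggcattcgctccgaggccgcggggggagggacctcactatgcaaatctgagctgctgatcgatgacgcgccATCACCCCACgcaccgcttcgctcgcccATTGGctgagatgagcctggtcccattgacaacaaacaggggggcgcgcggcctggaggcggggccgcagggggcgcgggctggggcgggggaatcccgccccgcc
FDPS: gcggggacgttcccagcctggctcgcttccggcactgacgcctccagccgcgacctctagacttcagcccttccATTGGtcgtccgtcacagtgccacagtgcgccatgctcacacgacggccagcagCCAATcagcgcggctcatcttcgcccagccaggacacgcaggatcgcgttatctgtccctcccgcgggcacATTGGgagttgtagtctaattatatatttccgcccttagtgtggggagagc
MVK: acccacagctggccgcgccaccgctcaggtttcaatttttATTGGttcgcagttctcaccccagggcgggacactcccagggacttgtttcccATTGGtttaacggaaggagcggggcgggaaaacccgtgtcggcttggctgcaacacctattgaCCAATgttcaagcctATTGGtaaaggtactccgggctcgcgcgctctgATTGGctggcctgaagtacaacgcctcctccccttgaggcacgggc
SREBF2 held 1 sterol element and 1 CCAAT, FDPS held 3 CCAAT matches and MVK held 5. CCAAT was present in 21 of 31 windows (67.7%) of the cholesterol list, beside 34.6% of all windows. The exact sterol element was in 1 of these 31, that of SREBF2, and in 16 of all windows (0.0456%).

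Fatty acid synthesis and desaturation genes gave 3 of 21 tested members below CTRL in all SG1 libraries (14.3%, beside 7.21% of all genes) and 0 above. The median log2 fold change of -0.10 was -0.17 without CTRL replicate 3 and after correction for gene length, and -0.043 by limma-voom with quality weights. The 3 were the front-end desaturases FADS1, FADS2 and FADS3, which lie side by side on chromosome 11. FADS2 stood at 112, 92.8 and 119 CPM in CTRL and at 90.2, 88.5 and 65.5 CPM in SG1, FADS1 ranged from 126 to 148 against 98.0 to 122 CPM, and FADS3 from 68.9 to 88.5 against 54.5 to 63.9 CPM. The annotated span of FADS2 overlaps those of FADS1 and FEN1, and the labels give no strand setting for the counting, so their reads could be split. The fatty acid synthase FASN overlapped between groups, at 374 to 482 CPM in CTRL and 270.0 to 416 CPM in SG1.

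SCD, ABCG1, ABCA1, SREBF1 and MYLIP split the SG1 group. These are known targets of the oxysterol receptor LXR, the desaturase SCD being one of SREBP as well. SCD stood at 66.0 and 61.2 CPM in SG1 replicates 1 and 3 but at 132 CPM in replicate 2, beside 176, 128 and 269 CPM in CTRL. ABCG1, a sterol exporter, was at 0.337 and 0.479 CPM in SG1 replicates 1 and 3 and at 3.401 CPM in replicate 2, beside 3.71, 3.91 and 5.21 CPM in CTRL. ABCA1, the other exporter, was at 35.8 and 37.9 CPM in the same pair and at 144 CPM in replicate 2, above all CTRL libraries (74.3 to 102 CPM).

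SREBF1 (104, 163 and 88.1 CPM in SG1, 154 to 202 CPM in CTRL) and MYLIP (13.8, 20.7 and 13.0 CPM in SG1, 20.8 to 22.9 CPM in CTRL) also had SG1 replicate 2 as the highest of the SG1 libraries. By a narrow margin, ABCG1 and MYLIP were still below CTRL in all 3. SG1 replicate 2 is also the SG1 library with the most KIF20A. Whether the amount of KIF20A moves with these genes was not tested, with 3 libraries in the group. Without SG1 replicate 2, the log2 fold change of ABCG1 went from -1.59 to -3.38 and became the single edgeR call (adjusted p = 0.0121). All SG3 libraries lay below CTRL in both, at 1.94, 1.11 and 1.83 CPM of ABCG1 and 87.7, 67.8 and 56.4 CPM of SCD.

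A few single secreted and signalling genes had wide gaps or were called by DESeq2, but their lists held few separated members. Of 29 tested metalloproteinases and inhibitors 1 lay above (3.45%) and 2 below (6.90%), beside 4.96% and 7.21% of all genes. Of 14 EGF receptor family and ligand genes 1 lay above and 1 below (7.14% each). Of 39 axon guidance genes 2 lay above (5.13%) and 1 below (2.56%). MMP1 (ENSG00000196611.6, minus strand, chr11:102789920-102798160), the interstitial collagenase, stood at 2.60, 3.199 and 2.95 CPM in CTRL and at 22.9, 6.06 and 67.8 CPM in SG1. All SG1 libraries were higher, but they spread widely, with a log2 fold change of 3.46 ± 0.73 (edgeR adjusted p = 0.913). Without SG1 replicate 3, the highest library, it was 2.31. SG3 stood at 5.14, 33.3 and 10.7 CPM. TGFA (ENSG00000163235.16, minus strand, chr2:70447280-70554193), a ligand of the EGF receptor, was far tighter, at 104, 97.2 and 101 CPM in CTRL and 152, 134 and 150.4 CPM in SG1 (log2 fold change 0.53 ± 0.12, edgeR adjusted p = 0.913). Its SG3 values of 144, 135 and 133 CPM were also above all CTRL values, while the receptor EGFR overlapped (365 to 424 CPM in CTRL, 375 to 463 CPM in SG1). ROBO1, a Slit receptor of axon guidance and the third DESeq2 call (adjusted p = 0.0373), was rare, at 0.176, 0.243 and 0 CPM against 0.927, 0.656 and 1.77 CPM.

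On the lower side, IGFBP4 (ENSG00000141753.7, plus strand, chr17:40443461-40457731), a secreted binding protein of insulin-like growth factors, was the most abundant, at 1533, 1769.6 and 1551 CPM in CTRL and 877, 1187 and 876 CPM in SG1. The SG1 mean was 1.65-fold lower (log2 fold change -0.72 ± 0.22, edgeR adjusted p = 0.913). In SG3, replicate 1 was at 914 CPM, but replicates 2 and 3 were at 1732 and 1769.5 CPM. Inhibin beta A (INHBA), an activin subunit, stood at 23.1, 33.9 and 32.7 CPM in CTRL and at 11.8, 19.5 and 20.1 CPM in SG1. PMEPA1, a feedback target of TGF-beta, lay lower as well, at 59.7 to 91.0 CPM in CTRL and 37.0 to 56.2 CPM in SG1. Across the 32 tested TGF-beta and BMP genes, however, only 1 lay above and 2 below, close to the shares of all genes.

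Matrix and adhesion genes were mixed. Of 39 tested collagen, laminin and matrix genes 3 lay below (7.69%, close to the 7.21% of all genes) and 0 above. Their median log2 fold change was -0.18, and it was -0.091, -0.083 and -0.33 without CTRL replicates 1, 2 and 3, -0.086 without SG1 replicate 3, -0.29 by limma-voom with quality weights and -0.072 with libraries shifted to a common median by GC content. COL4A2, a basement membrane collagen, ran from 208 to 332 CPM in CTRL and from 146 to 199.98 CPM in SG1, and its neighbour COL4A1 from 71.2 to 94.0 against 51.8 to 70.7 CPM. Both start from opposite strands of overlapping annotated spans. CTRL replicate 3 was the lowest CTRL library in both. Of 29 integrin and focal adhesion genes 4 lay above (13.8%, beside 4.96% of all genes), among them ITGA2 (152 to 196 CPM in CTRL, 203 to 242 CPM in SG1) and vinculin (VCL, 454 to 506 against 554 to 578 CPM). Another 2 lay below (6.90%, beside 7.21%), among them TNS4, a tensin that lacks the actin-binding part, at 4.68, 6.54 and 2.84 CPM against 1.35, 2.09 and 2.01 CPM.

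The remaining genes with the widest gaps belonged to no common list. On the higher side they included IQCG, a calmodulin-binding ciliary protein, FAM133A, the kinase MAST4, the decapping factor DCP1A, the retinoic acid binding protein CRABP2 and the lectin LGALS8. FAM133A was nearly constant within SG1, at 12.5, 12.4 and 12.5 CPM, against 6.04, 5.43 and 9.54 CPM in CTRL, and stood at 4.98 to 6.55 CPM in SG3. MAST4 was at 18.4, 16.2 and 14.7 CPM in CTRL and at 26.0, 23.6 and 26.0 CPM in SG1.

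On the lower side were the hair keratin KRT81, the autophagy initiation factor ATG101, PHLDB3, the ribosomal protein RPL35A, the transcript GABPB1-IT1, the chromatin remodelling subunit TFPT, the ubiquitin-like UBL5, the RNA decay factor LSM1 and AKIP1. KRT81 had the widest lower gap (0.54 on the log2 scale), at 10.2, 13.4 and 12.6 CPM in CTRL and 6.41, 6.84 and 6.66 CPM in SG1, but it ranged from 8.42 to 28.6 CPM in SG3, and reads of hair keratin genes may be shared with near-identical copies. ATG101 was at 12.4 to 15.8 CPM in CTRL and 8.85 to 9.23 CPM in SG1. UBL5, needed for splicing, stood at 53.9, 56.9 and 55.5 CPM against 41.7, 39.8 and 32.8 CPM.

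**Figure D2:**
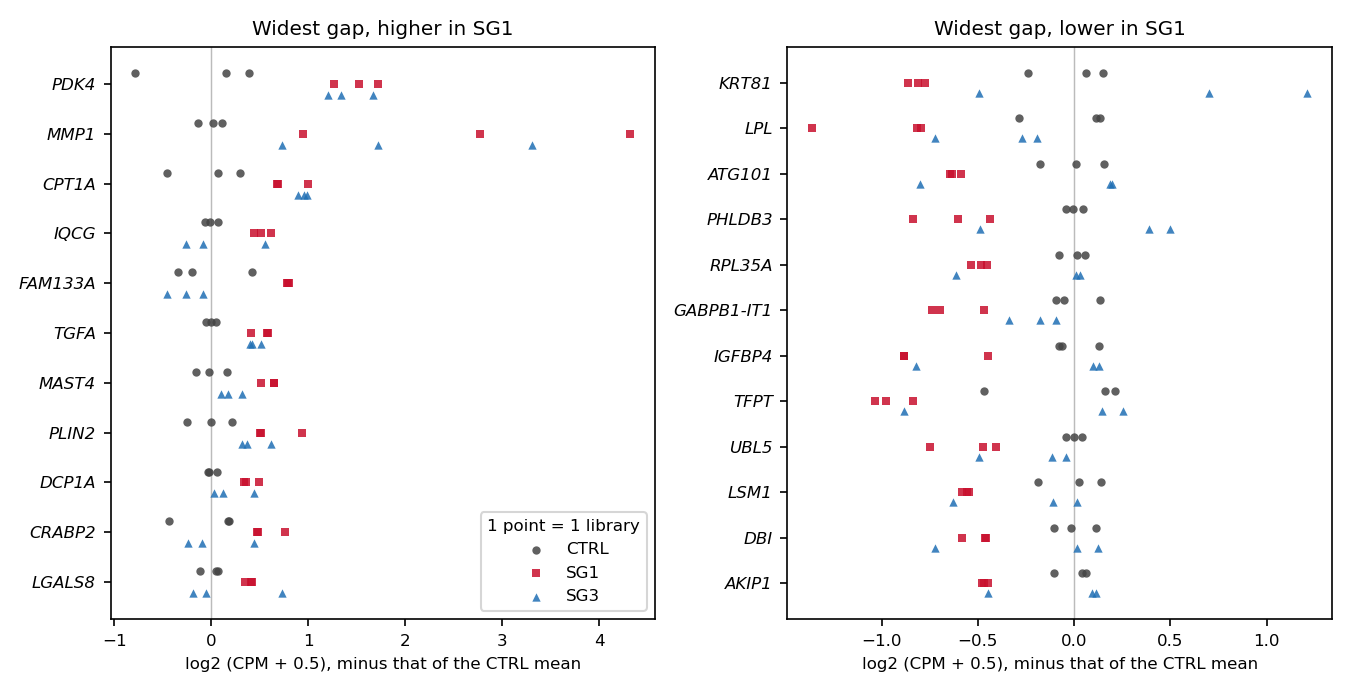
Values of single libraries for genes among the 12 with the widest gap in each direction, as log2 of CPM plus 0.5 minus the same of the CTRL mean, with CTRL as grey circles, SG1 as red squares and SG3 as blue triangles. For PDK4, CPT1A, TGFA and PLIN2 the SG3 points lie with SG1, whereas for RPL35A, IGFBP4 and TFPT 1 of the 3 SG3 points lies with SG1 and the other 2 with CTRL.

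Mitotic genes lay slightly higher in SG1 as a group, although KIF20A, itself a mitotic gene left off the list, lay lower. Of 81 tested members of the mitosis list, 67 had a positive log2 fold change and the median was 0.19, while 7 lay above CTRL in all SG1 libraries (8.64%, beside 4.96% of all genes) and 1 below. The summed level of its members was 11162, 11645 and 13586 CPM in CTRL and 14310.2, 15431 and 12233 CPM in SG1, so SG1 replicate 3 was inside the CTRL range. The median was 0.30 without CTRL replicate 3 and 0.11 without CTRL replicate 1. By role, it was 0.17 for entry factors and kinases, 0.15 for the kinetochore and checkpoint, 0.26 for the spindle and cytokinesis and 0.11 for exit.

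ASPM, a spindle pole protein, stood at 224, 235 and 245 CPM in CTRL and at 306, 394 and 285 CPM in SG1. BORA, the activator of Aurora A, was at 13.2, 13.9 and 18.9 CPM against 21.9, 24.1 and 22.5 CPM. KIF20B, the nearest relative of KIF20A and also a cytokinesis kinesin, was at 155, 163 and 221 CPM against 242, 273 and 228 CPM (log2 fold change 0.46 ± 0.17, edgeR adjusted p = 0.913). KIF23, the kinesin of centralspindlin, overlapped, with 184 to 254 CPM in CTRL and 242 to 301 CPM in SG1. Aurora B (AURKB), the kinase that KIF20A helps to place, also overlapped, at 78.8 to 101 CPM against 81.5 to 91.9 CPM. UBE2S, a ubiquitin enzyme of mitotic exit, was the lower gene, at 295 to 309 CPM in CTRL and 243 to 285 CPM in SG1.

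The stretch before the start of ASPM, chr1:197146670-197146919 on the minus strand of GRCh38.p14, is shown because it holds both elements of G2 to M promoters. Capitals mark CCAAT, the cell cycle homology element TTTGAA and TATAAA on either strand.
ASPM: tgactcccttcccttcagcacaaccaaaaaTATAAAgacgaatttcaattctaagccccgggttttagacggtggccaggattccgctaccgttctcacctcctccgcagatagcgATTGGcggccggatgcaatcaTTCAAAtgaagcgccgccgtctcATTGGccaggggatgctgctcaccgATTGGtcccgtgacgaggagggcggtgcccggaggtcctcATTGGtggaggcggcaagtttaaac
It held 4 matches to CCAAT, 1 to TTTGAA and 1 to TATAAA. The element occurred in 45 of the 83 mitosis windows (54.2%), beside 15.2% of all windows.

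DNA replication genes, which act earlier in the cycle, leaned the other way. Of 49 tested, 14 lay below CTRL in all SG1 libraries and 0 above, beside 7.21% and 4.96% of all genes. The median log2 fold change was -0.09, but leaving out CTRL replicate 3 gave -0.031, leaving out CTRL replicate 2 gave -0.14, and limma-voom with quality weights gave 0.0081. The summed level overlapped, at 5727 to 6549 CPM in CTRL and 5539 to 5979 CPM in SG1. UNG, a uracil glycosylase, was at 124, 107 and 121 CPM in CTRL and at 82.8, 86.3 and 88.3 CPM in SG1, and MCM5, a helicase subunit, at 124 to 142 against 99.99 to 109.6 CPM. The S phase factor E2F1 ran from 161 to 194 CPM in CTRL and from 134 to 152 CPM in SG1, while PCNA and CDC6 overlapped. In SG3, UNG was 86.2 CPM in replicate 1 and 122 and 131 CPM in replicates 2 and 3. Of 32 homologous recombination genes 4 lay above (12.5%, beside 4.96% of all genes), among them ATR (46.3 to 59.5 CPM in CTRL, 67.8 to 71.2 CPM in SG1) and POLQ, and 2 below (6.25%, beside 7.21%), among them FANCG. Of 25 p53 targets 2 lay above and 1 below, near the shares of all genes, and CDKN1A overlapped (68.9 to 131 CPM in CTRL, 65.5 to 114 CPM in SG1).

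Genes of the translation and respiration machinery made up the largest separated groups, all lower in SG1. Of 76 tested cytosolic ribosomal protein genes 33 lay below CTRL in all SG1 libraries and 0 above (median log2 fold change -0.19). Among 60 mitochondrial ribosomal protein genes the counts were 28 and 0 (median -0.18), and among 74 nuclear-encoded respiratory chain genes 26 and 0 (median -0.17). The proteasome gave 11 of 34 and 0, with a smaller median of -0.06 that was 0.033 without CTRL replicate 3, 0.027 by limma-voom with quality weights, -0.0074 without SG1 replicate 3, -0.12 without CTRL replicate 1 and -0.032 after correction for gene length. All these shares lie above the 7.21% of all genes. The summed level of the cytosolic ribosomal genes was 3.56% to 4.32% of counts in CTRL and 3.27% to 3.55% in SG1, without overlap and with CTRL replicate 3 the highest of the 6. Reads of ribosomal protein genes can be shared with their many pseudogenes, and the labels do not tell how such reads were counted.

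RPL35A stood at 270.2, 278 and 253 CPM in CTRL and at 195, 191 and 184 CPM in SG1 (log2 fold change -0.49 ± 0.16, edgeR adjusted p = 0.913). RPS2, of the small subunit, was at 1121, 1112 and 914 CPM against 703, 727 and 708 CPM. In NDUFA1 and COX5B, small subunits of complexes I and IV, CTRL replicate 3 came close to SG1: NDUFA1 was at 38.0, 41.2 and 25.8 CPM in CTRL and 17.996 to 21.9 CPM in SG1, and COX5B at 67.3, 65.8 and 43.1 CPM and 34.0 to 39.4 CPM. MRPL12 showed this most, at 13.8, 11.2 and 4.12 CPM in CTRL and 2.97, 3.52 and 3.35 CPM in SG1. SG3 replicate 1 lay with SG1 in all 5 genes and SG3 replicates 2 and 3 with CTRL, as in RPL35A, at 174, 269 and 272 CPM.

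The mitochondrially encoded partners of the respiratory chain did not separate. Of 13 mRNAs, 0 lay above and 0 below, with a median log2 fold change of 0.61 that was 1.21 when CTRL replicate 1 was left out, and came to 0.36 without CTRL replicate 3 or 0.29 without SG1 replicate 3. MT-CO1, a core subunit of complex IV, was at 6039, 2691 and 2474 CPM in CTRL and 5119, 3533 and 8455 CPM in SG1. Mitochondrial transcripts took 1.13% to 2.84% of counts in CTRL and 1.70% to 3.82% in SG1.

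**Figure D3:**
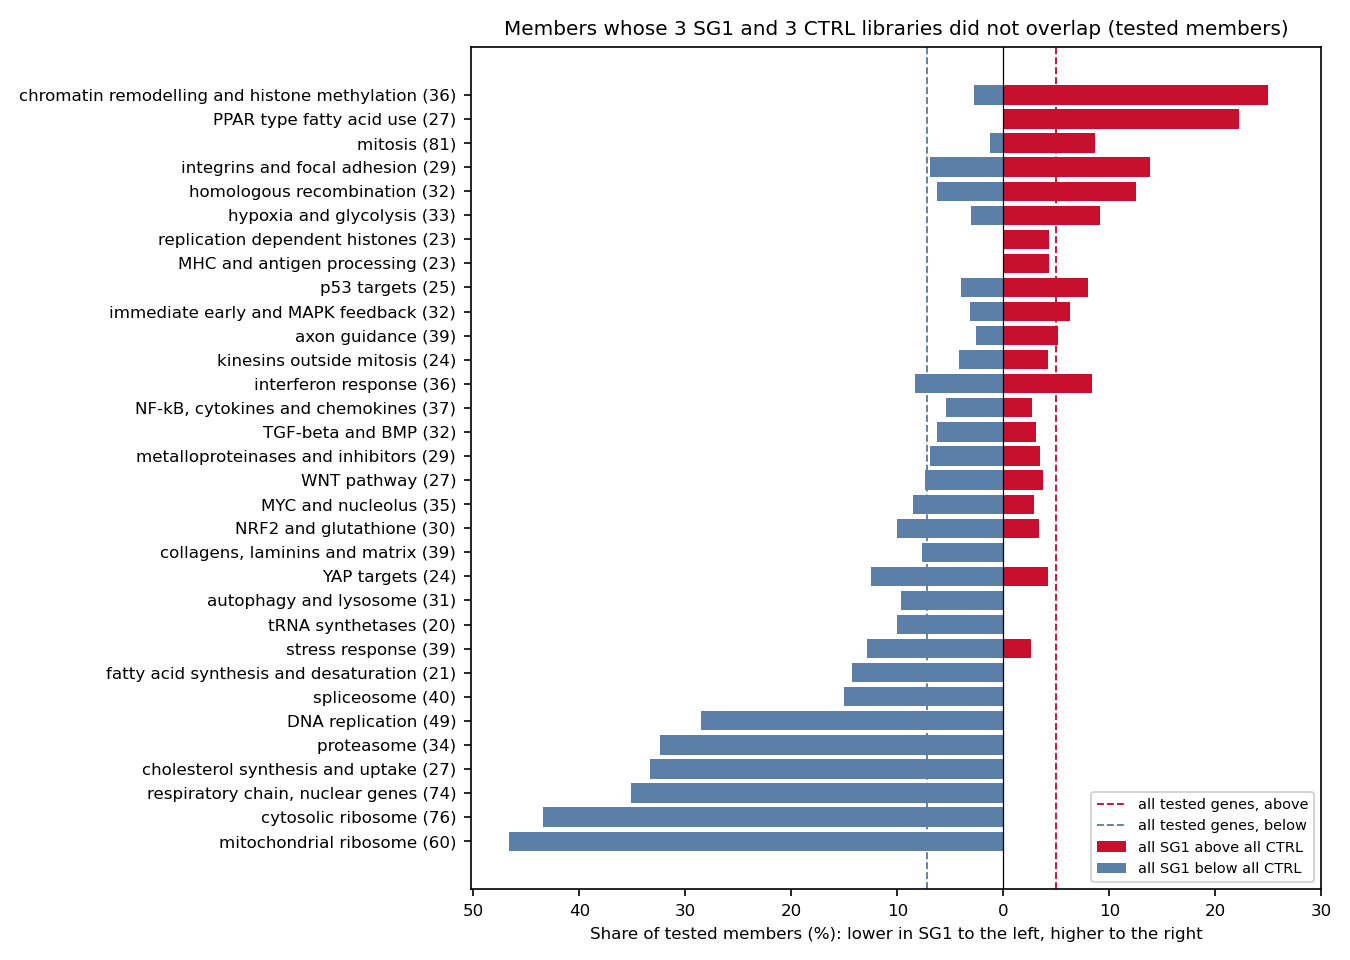
Share of the tested members of each gene list, with their number in parentheses, whose 3 SG1 libraries all lay above (red, right) or all below (blue, left) the 3 CTRL libraries; dashed lines mark the shares of all tested genes, 4.96% above and 7.21% below. Ribosomal, respiratory, cholesterol, proteasome and DNA replication lists extend left, and the chromatin and fatty acid use lists extend right.

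Separated genes differed in length and base composition. Exonic length and transcript GC content come from GENCODE 29 and were matched for 16601 genes (98.9%). Among the longest decile of genes (9957 bases and more) 14.1% lay higher in SG1 and 1.93% lower, whereas in the third decile (2101 to 2847 bases) it was 2.16% and 13.5%. Among the decile with the lowest GC content (up to 38.6%) 7.47% lay higher and 1.38% lower, and among the decile with the highest (61.4% and more) 1.02% higher and 15.96% lower. The median log2 fold change went from 0.15 in the lowest GC decile to -0.23 in the highest. Median exonic length was 2992 bases in the cytosolic ribosome list and 14612 bases in the list of chromatin remodelling and histone methylation genes, beside 4364 bases in all tested genes. In that chromatin list 9 of 36 lay above (25%, beside 4.96% of all genes and 14.1% of the longest decile). Among them were the SET-domain protein KMT2E (76.8 to 81.2 CPM in CTRL, 94.5 to 112 CPM in SG1) and the H3K36 methyltransferase SETD2 (113 to 130.3 against 145 to 154 CPM). CHD4 was the 1 below (2.78%, beside 7.21% of all genes and 1.93% of the longest decile).

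**Figure D4:**
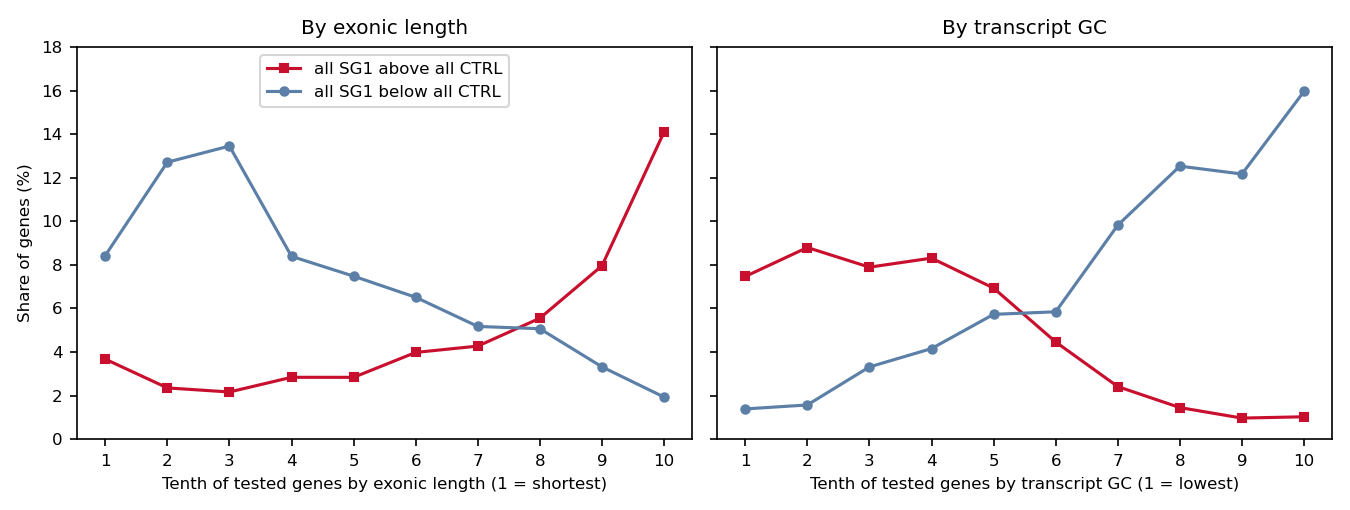
Share of genes whose 3 SG1 libraries all lay above (red squares) or all below (blue circles) the 3 CTRL libraries, by decile of exonic length (left) and of transcript GC content (right). Higher genes reach 14.1% in the longest decile, and lower genes reach 15.96% in the decile with the most GC.

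The libraries themselves differed in GC content within groups. The median centred log2 CPM of the highest GC decile minus that of the lowest was 0.37, 0.31 and -0.37 in CTRL replicates 1, 2 and 3 and -0.18, -0.29 and -0.22 in SG1. CTRL replicate 3 thus lay on the SG1 side, beyond all SG1 libraries. In SG3 the values were -0.40, 0.44 and 0.34, so that SG3 replicate 1 lay with SG1 and the other 2 with CTRL replicates 1 and 2. For length, the same difference between the longest and the second decile was -0.078, -0.11 and -0.058 in CTRL, 0.031, 0.17 and 0.14 in SG1 and 0.16, -0.12 and -0.098 in SG3. Among the 1210 genes lower in SG1, SG3 replicate 1 was the lowest of the 3 SG3 libraries in 80.3%, beside 39.8% of all tested genes, and among the 832 higher genes it was the highest in 74.9%, beside 44.8%.

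When each library was shifted to a common median within each GC decile, an alternative chosen after seeing the data, 840 genes lay higher and 1089 lower. The list medians were then 0.12 for fatty acid use, -0.17 for cholesterol synthesis and uptake, 0.15 for mitosis, -0.18 for the cytosolic ribosome and -0.17 for the respiratory chain. After subtracting the median of genes of like length, also chosen after seeing the data, they were 0.11, -0.25, 0.21, -0.15 and -0.14. For the mitochondrial ribosome the length correction brought -0.18 to -0.11. For the chromatin list the median of 0.16 became 0.14 with the GC shift and 0.042 after the length correction, and it was 0.086 without CTRL replicate 3 and 0.062 without SG1 replicate 2. For single genes the GC shift left PDK4 at 1.601, CPT1A at 0.81, ANGPTL4 at 2.15 and PLIN2 at 0.68 on the log2 scale. It brought SREBF2 from -0.25 to -0.16, DHCR7 from -0.33 to -0.19 and SREBF1 from -0.54 to -0.35. What else distinguishes these libraries was not tested.

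**Figure D5:**
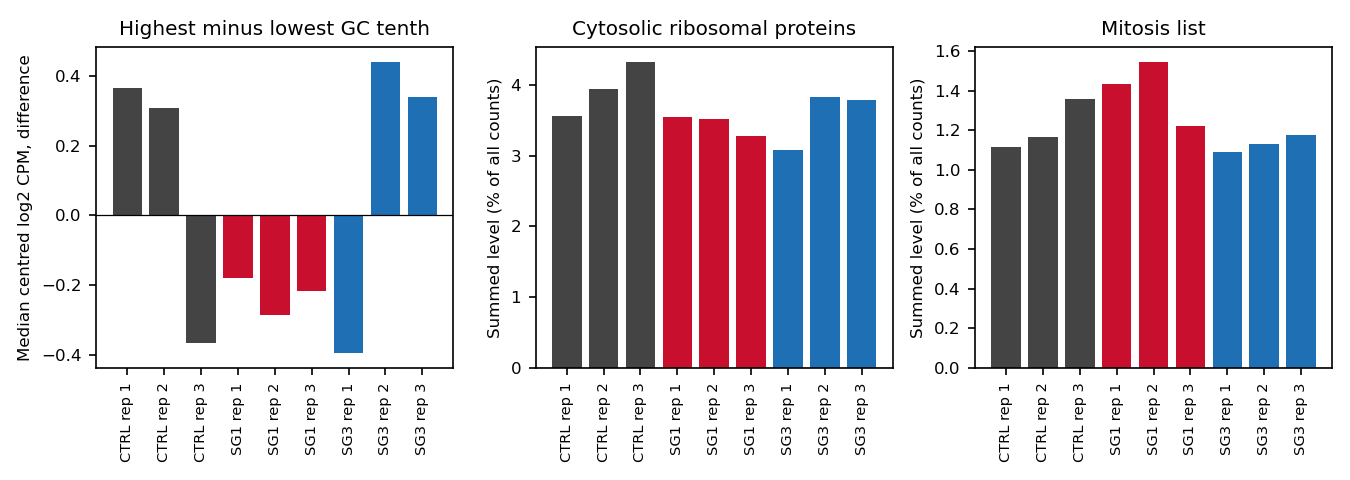
Left, the median centred log2 CPM of the highest GC decile minus that of the lowest for each library; middle and right, the summed level of cytosolic ribosomal protein genes and of the mitosis list as a percent of all counts after TMM scaling, with CTRL in grey, SG1 in red and SG3 in blue. CTRL replicate 3 lies below 0 at left with the 3 SG1 libraries and SG3 replicate 1, yet it has the highest ribosomal protein level.

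Library totals ran from 41424338 to 51018667 counts. Libraries of 1 group differed by more than counting noise, with a chi-square per degree of freedom of 37.5 to 131.5. This does not tell whether they came from separate cultures. The first principal component of the 6 libraries (29.6% of variance) ordered CTRL replicates 1, 2 and 3 at -40.8, -9.57 and 44.0 and SG1 replicates at 4.53, 23.8 and -22.0, so it did not follow the groups. On the second component (23.4% of variance) all CTRL libraries, at 20.0, 32.6 and 2.64, lay above all SG1 libraries, at -8.46, 0.44 and -47.2. The summed level of 23 luminal and epithelial markers was 1684 to 2001 CPM in CTRL and 1299 to 1725 CPM in SG1. Of its 16 tested members 13 had a negative log2 fold change. KRT19 and ERBB3 lay lower in all SG1 libraries (12.5%, beside 7.21% of all genes). For 12 fibroblast markers the sum was 54.2 to 65.8 CPM in CTRL and 34.8 to 65.3 CPM in SG1, with DCN at 0 throughout, and that of 12 leukocyte markers was 15.8 to 24.7 against 13.5 to 18.3 CPM, with CD3E at 0. Of 6 tested fibroblast markers 2 lay lower in all SG1 libraries, PDGFRB and C1S, and of 3 tested leukocyte markers 1, CD14. Each is 33.3%, beside 7.21% of all genes, but of very few genes. Among 9 tested mesenchymal markers of the cell line 1 lay lower too, AXL (11.1%). The part of these markers in the results was not tested.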

How the data were processed

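RNA-seq of 6 libraries (3 CTRL, 3 SG1) was compared, with 3 SG3 libraries in the same fit to share the estimate of spread. The deposited counts are whole raw counts per gene for 60651 GENCODE-style identifiers. Per the submitters' processing notes, Trim Galore 0.6.4, STAR 2.7.3a, featureCounts with Subread 1.6.3, limma 3.50.3 and the build hg38 were used, while their settings, annotation release, strand and filters are not stated in the labels. Between 62.9% and 68.0% of counts from 10 to 50 were even in these libraries, which is why halved counts were tried.

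Genes were kept with edgeR's filterByExpr (16786), scaled by TMM and tested with edgeR 4.0.16 quasi-likelihood (Benjamini-Hochberg over all genes, threshold 0.05) in R 4.3.3. DESeq2 1.42.0 and limma 3.58.1 were alternatives. With 3 against 3 libraries an exact permutation test cannot go below p = 0.1, so non-overlap is given as a description. Tested on simulated data of this comparison (16407 genes), the fit called 12.3% of genes altered 1.5-fold, 54.5% of those altered 2-fold and 87.5% at 4-fold. The simulated counts were drawn independently for each gene, without the GC and length differences between libraries described above. These shares therefore need not hold for the real libraries. Lengths, GC content and positions came from GENCODE 29, and promoter windows from RefSeq (GRCh38.p14).

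The genes named were KIF20A, the 12 with the widest gap in each direction, the 2 lowest unadjusted p-values per direction in each role of 45 gene lists, members marked for their textbook role, and genes called by an alternative test; ACAA2, CREB3L3, DHCR7, EBP, FDPS, MVK, PMVK, PPARA, PPARG and TXNIP were chosen after their values were seen. A few genes that meet this rule are not reported here. The comparison and the lists (1369 genes, 1258 of them tested) were chosen with earlier results of these data known. Replicate numbers shared by CTRL and SG1 did not pair the libraries, since same-numbered deviations had correlations of -0.077, -0.042 and -0.12.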

Additional observations from a re-analysis of the deposited data

How the results depend on the processing

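KIF20A kept its direction in all 18 alternatives, at -0.59 to -0.26 on the log2 scale, with adjusted p from 0.0816 to 1.00. The calls depended on the test: without the low-count filter edgeR called 26 genes higher and 65 lower, DESeq2 called 3 higher, and limma-voom with quality weights called 15 higher and 45 lower. Genes at an unadjusted p under 0.05 then numbered 1442 without the filter and 3978 with quality weights. The cause was not tested. Leaving out 1 library at a time, edgeR called 0 higher and 0 to 1 lower (ABCG1, without SG1 replicate 2), with 330 to 2021 genes at an unadjusted p under 0.05. Non-overlapping genes numbered 757 to 3180 higher and 1177 to 3375 lower, the highest counts without CTRL replicate 3; 2 libraries against 3 overlap less by construction. The replicate block gave 0 calls, 607 genes at an unadjusted p under 0.05 and -0.43 for KIF20A. Of 816 list medians under alternatives, 779 moved by less than the spread, 33 moved more and 4 reversed beyond that spread; 73 changed sign in all, 70 of them for lists whose median lay within 0.1 of 0, with DNA replication and the proteasome among them. The spliceosome median went from -0.07 to 0.014 without CTRL replicate 3 (-0.13 to 0.014 over single libraries left out) and to 0.0094 with quality weights, autophagy and lysosome to 0.016 with the GC shift, and kinesins outside mitosis to -0.037 after the length correction. Of 666 values for 37 named genes, 27 changed side of the threshold and 0 changed direction. Most of these genes were chosen because all 3 SG1 values lay on 1 side of all 3 CTRL values. Their kept direction largely follows from that choice and is no separate support. Depth of 41424338 to 51018667 counts limits genes near 0.07 CPM, such as CREB3L3 and ROBO1.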

Other observations

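Several gene groups not described above held few separated members. Of 33 tested hypoxia and glycolysis genes 3 lay higher in SG1 (HK2, PDK1 and PDK3) and 1 lower (ADM), beside 4.96% and 7.21% of all genes. PDK3, a sister kinase of PDK4, stood at 25.9, 24.2 and 26.8 CPM in CTRL and at 39.6, 40.5 and 31.4 CPM in SG1, and SG3 gave 40.3, 26.7 and 20.9 CPM. Of 39 stress response genes 5 lay lower (CALR, CRELD2, HYOU1, SHMT2 and SLC3A2) and 1 higher (ATF6). Of 36 interferon response genes 3 lay higher and 3 lower, and of 15 tubulin genes 0 lay in either direction. SAA1, an acute phase protein, was at 399, 351 and 158 CPM in CTRL and 113, 146 and 122 CPM in SG1, with SG3 at 126, 479.9 and 497 CPM.

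By chromosome, 12.01% of 1174 tested genes on chromosome 19 lay lower in SG1 and 2.98% higher, with a median log2 fold change of -0.11. Chromosome 22 gave 10.3% and 1.96% of 408 genes. Chromosome 18 gave 2.33% lower and 8.53% higher of 258 genes, with a median of 0.11. Over all tested genes the shares were 7.21% lower and 4.96% higher. In the decile with the highest GC content they were 15.96% and 1.02%, and in the lowest 1.38% and 7.47%. Whether the chromosome shares follow the GC content of their genes was not tested. Protein-coding genes lay higher in 5.16% and lower in 7.80%, and processed pseudogenes in 4.08% and 8.84%.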
